A study of Mus musculus with 24 samples.

Results

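The livers of 6 wild-type male mice, 3 injected with ganciclovir (GCV) and 3 with its vehicle (VEH), were compared across genes. They were chosen by their labels (wild type, M, GCV or VEH) and make up 6 of the 24 livers of the series, in which 6 wild-type females and 12 p16-3MR mice of both sexes also received GCV or VEH. Per the labels, all wild-type mice were given their first injections at 6 months of age, and livers were taken after 3 months of monthly rounds of 5 consecutive daily intraperitoneal injections. GCV was dissolved in pH11 water, which was also the vehicle. The labels give a GCV dose of 150 mg/kg, whereas the methods of the study state another, lower dose, so the dose is uncertain. The mice carry no transgene. The p16-3MR mice carry a cassette with a viral thymidine kinase under p16 promoter sequence, and their monthly treatment began at 16 to 18 months, so that their schedule was not that of the wild-type mice. The wild-type livers are batch 2 and the p16-3MR livers batch 1, so that genotype, age, schedule and batch cannot be told apart, although the labels call the wild-type mice age-matched. The wild-type males therefore ask what GCV does to liver RNA without the transgene.

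GCV is a guanosine analog that becomes toxic once a viral kinase has phosphorylated it, after which it is built into DNA and stops its synthesis. Mammalian kinases do this poorly, and the genes that could report on residual activity include p53 targets, cell division genes, mitochondrially encoded genes and the transporters and kinases that handle nucleosides. Liver RNA is also known to vary among mice with feeding state, growth hormone pulses and inflammation, through PPARα targets, sex-biased cytochrome P450 genes and acute-phase genes.

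RNA 3′ ends were sequenced with Smart-3SEQ, and values are given as CPM (counts per 1000000, with libraries scaled by TMM). Total counts were 3766016 to 5667904 per male liver, and counts fell on 10827 to 11222 genes. A count of 3, taken as the detection floor, equalled 0.580 to 0.943 CPM on this scale, which covers counting error only. The deposited wild-type labels lack 9 of the lower-case letters (y, s, o, n, m, l, g, e and b), and a symbol was used only where exactly 1 mouse symbol gives the label, which held for 10512 of 12643 labels. Between 34.3 and 38.6% of the counts of a male liver fell on labels that several symbols give. The hepatocyte markers Ttr (9602 to 11708 CPM) and Trf (9481 to 11902 CPM), which code for carrier proteins of the blood, were abundant in all 6 livers, and Cyp7b1, a male-biased oxysterol hydroxylase, lay between 325 and 518 CPM in the males and between 27.5 and 42.6 CPM in the females.

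The 6 male livers did not fall apart by treatment. Along the first principal component (37.1% of the variance) the scores were 17.5, -15.7 and 18.4 in GCV livers 1, 2 and 3 and 22.1, -23.4 and -18.9 in VEH livers 1, 2 and 3. GCV livers 1 and 3 thus lay beside VEH liver 1, and GCV liver 2 beside VEH livers 2 and 3. Spearman's rho over the 15 pairs of livers, given as a description, was between 0.957 and 0.979. It was highest for VEH livers 2 and 3 (0.979) and lower between VEH livers 1 and 2 (0.958) than between GCV liver 1 and VEH liver 1 (0.968). Among the 8401 genes with a mean of at least 10 counts, GCV livers 1 and 3 and VEH liver 1 were the 3 highest in 1013 (12.1%) and the 3 lowest in 1081 (12.9%). Acute-phase genes and PPARα targets are shown here as examples. The order of livers was seen in the data and is not a group of the study, so each liver is given with its own value and no test.

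Saa2, an acute-phase serum amyloid A gene, had 3350, 18.3 and 735 CPM in GCV livers 1 to 3 and 4292, 39.3 and 43.7 CPM in VEH livers 1 to 3. Lcn2, coding for the iron-siderophore binding protein lipocalin 2, had 113, 1.64 and 94.6 CPM after GCV and 220, 5.46 and 4.84 CPM after VEH. Both genes were high in 2 GCV livers and in 1 VEH liver, and the groups overlapped. The 6 wild-type female livers lay between 15.6 and 29.9 CPM for Saa2 and between 4.82 and 9.73 CPM for Lcn2. The log2 fold change of Saa2, GCV versus VEH, was -0.09 (standard error 1.15, 95% interval -2.48 to 2.30), and that of Lcn2 was -0.14 (standard error 0.91). Neither value had a stable sign: with 1 liver left out in turn, that of Saa2 lay between -1.96 and 5.04 and that of Lcn2 between -0.71 and 3.73, both highest without VEH liver 1 (5.04 and 3.73, with edgeR adjusted p-values of 0.0203 and 0.0333). Reads of Saa2 may have been shared with its near-identical neighbor Saa1.

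Further genes followed the same order of livers, and they are named here after their values were seen. Saa3, a serum amyloid A gene also made by macrophages, had 58.5, 5.54 and 14.3 CPM after GCV and 190, 13.6 and 13.0 CPM after VEH. Cxcl1, a chemokine that draws in neutrophils and stands on the list of secretory-phenotype genes, had 36.2, 4.72 and 7.94 CPM after GCV and 27.9, 1.31 and 1.74 CPM after VEH. Itih4, an inter-α-trypsin inhibitor chain, had 1114, 599 and 949 CPM after GCV and 1474, 659 and 701 CPM after VEH. In 9 of the 10 acute-phase genes measured, GCV livers 1 and 3 and VEH liver 1 were the 3 highest livers, an order found in 12.1% of the 8401 genes with a mean of at least 10 counts. Hamp, coding for the iron hormone hepcidin, was the exception (1193, 1518 and 806 CPM after GCV; 1739, 1051 and 1134 CPM after VEH). None of the 10 passed an unadjusted p of 0.05 between treatments, against 5.06% of all genes. Their median log2 fold change was -0.09, against 0.002 over all genes. Without VEH liver 1 that median was 0.65, without GCV liver 2 it was 0.25, and without VEH liver 2 it was -0.29.

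The promoters of 4 of these genes are printed because their levels differed widely among the 6 livers and because NF-kB and C/EBP sites are a known feature of acute-phase promoters. Each run covers 250 bases before and 50 after the RefSeq start (GRCm38.p6), read 5′ to 3′ on the gene's strand, with matches to the NF-kB letters GGGA and CC set 4 bases apart, or to the C/EBP letters TTGCNNAA, on either strand in capitals.
Saa2, chr7:46751583-46751882, plus strand: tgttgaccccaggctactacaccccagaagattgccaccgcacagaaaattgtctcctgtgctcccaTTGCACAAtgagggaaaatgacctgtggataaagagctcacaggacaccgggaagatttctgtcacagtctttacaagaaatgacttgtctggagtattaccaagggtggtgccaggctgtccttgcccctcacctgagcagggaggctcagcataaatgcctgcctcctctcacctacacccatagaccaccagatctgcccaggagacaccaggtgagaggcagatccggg
Saa3, chr7:46715627-46715926, minus strand: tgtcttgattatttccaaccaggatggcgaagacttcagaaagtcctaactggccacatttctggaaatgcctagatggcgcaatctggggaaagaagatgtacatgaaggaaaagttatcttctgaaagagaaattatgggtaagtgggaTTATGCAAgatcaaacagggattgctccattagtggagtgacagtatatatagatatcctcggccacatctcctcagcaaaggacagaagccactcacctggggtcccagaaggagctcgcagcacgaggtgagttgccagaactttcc
Lcn2, chr2:32387690-32387989, minus strand: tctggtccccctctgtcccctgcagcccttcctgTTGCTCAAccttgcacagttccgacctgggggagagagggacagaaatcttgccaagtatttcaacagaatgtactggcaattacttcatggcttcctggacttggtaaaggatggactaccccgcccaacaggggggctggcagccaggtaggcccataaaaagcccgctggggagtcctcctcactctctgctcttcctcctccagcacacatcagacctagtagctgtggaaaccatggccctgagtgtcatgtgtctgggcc
Cxcl1, chr5:90890995-90891294, plus strand: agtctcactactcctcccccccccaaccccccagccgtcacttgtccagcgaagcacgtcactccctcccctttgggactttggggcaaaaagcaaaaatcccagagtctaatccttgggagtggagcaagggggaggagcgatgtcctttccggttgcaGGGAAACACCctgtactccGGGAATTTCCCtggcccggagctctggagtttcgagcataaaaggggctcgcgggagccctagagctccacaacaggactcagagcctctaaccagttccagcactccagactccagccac
Saa2, Saa3 and Lcn2 each held 1 C/EBP match, whose first base lay at -183, -99 and -216 relative to the start. Cxcl1 held 3 NF-kB matches, at -90, -71 and -70, of which the last 2 overlap. Over 32851 mouse promoters of the same length, 20.7% held an NF-kB match and 10.8% a C/EBP match, and a match is a description of the letters only.

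PPARα targets followed the opposite order. Cyp4a14, a fatty acid ω-hydroxylase, had 5.35, 157 and 15.6 CPM in GCV livers 1 to 3 and 6.12, 200 and 219 CPM in VEH livers 1 to 3. Cyp4a10, a related ω-hydroxylase named after its values were seen, had 30.5, 150 and 36.0 CPM after GCV and 27.9, 217 and 206 CPM after VEH. The livers with high Saa2 were the ones with low Cyp4a14 and Cyp4a10, and the female livers lay between 157 and 360 CPM for Cyp4a14. The log2 fold change of Cyp4a14 was -1.20 (standard error 0.76) and lay between -3.76 without GCV liver 2 and -0.69 without GCV liver 1. Of the 22 PPARα genes with a mean of at least 10 counts, 18 had GCV livers 1 and 3 and VEH liver 1 as the 3 lowest livers, an order found in 12.9% of the 8401 genes.

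**Figure D1:**
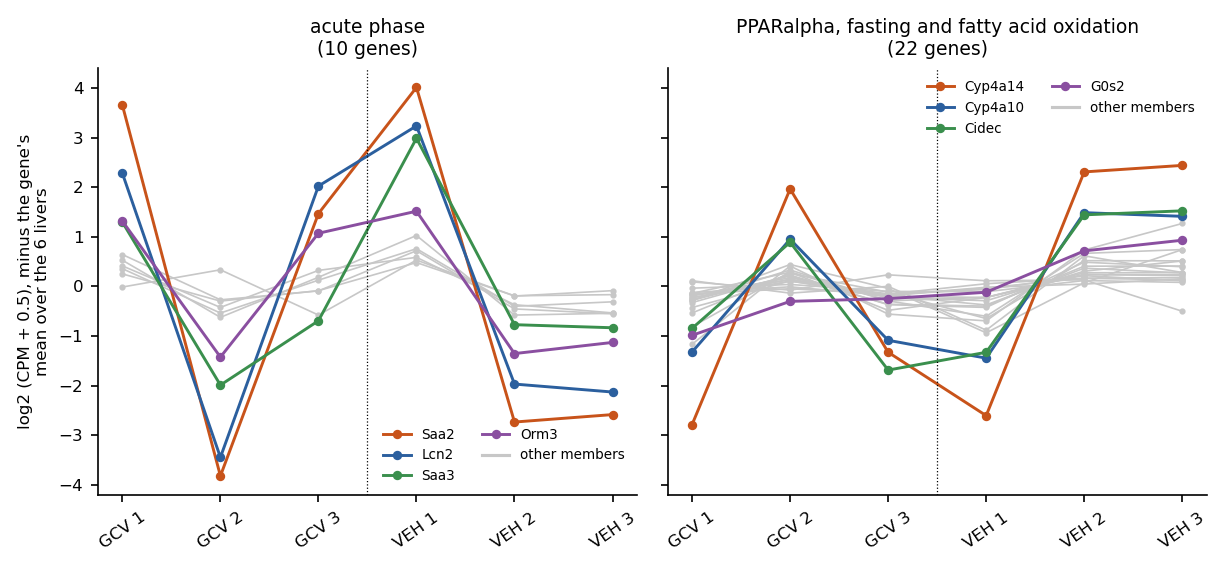
Level of each acute-phase gene (left, 10 genes) and PPARα gene (right, 22 genes) in the 6 wild-type male livers, as log2 of CPM plus 0.5 minus the gene's mean over the livers, with 1 line per gene. GCV livers 1 and 3 and VEH liver 1 lie above the others for Saa2 (3350, 735 and 4292 CPM against 18.3 to 43.7 CPM) and below them for Cyp4a14 (5.35 to 15.6 CPM against 157 to 219 CPM).

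Across all genes, no gene passed edgeR's test between GCV and VEH. With edgeR's quasi-likelihood test and an adjusted p under 0.05 (Benjamini-Hochberg, over 12643 genes), 0 genes (0%) were called, and the lowest adjusted p was 0.357. At an unadjusted p under 0.05 there were 640 genes (5.06%), 335 higher (2.65%) and 305 lower (2.41%) after GCV. DESeq2 called 1 gene (0.00791%), Cyp2c40, with 414 genes at an unadjusted p under 0.05. Limma-voom called 0 genes, with 1114 at an unadjusted p under 0.05. Among the 8401 genes with a mean of at least 10 counts, 809 (9.63%) had no overlap in CPM between the groups, 396 higher (4.71%) and 413 lower (4.92%) after GCV. The labels give 3 mice per group by number only, and the p-values measure the spread between these samples.

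The count of calls depended on single livers. Without VEH liver 1, edgeR's test called 46 genes (0.364%), 24 higher and 22 lower, of which 32 also had an unadjusted p under 0.05 over all 6 livers, and 1224 genes had an unadjusted p under 0.05. Without GCV liver 2 it called 4 genes (0.0316%), namely Cyp2b9, Cyp2c69 and the labels Hpa1 (Hspa1b or Hspa1l) and Id1 (Id1 or Ido1). Without each of the other 4 livers it called 0 genes. VEH liver 1 was the VEH liver with high acute-phase and low PPARα levels.

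The spread sets what could be seen. At a mean of at least 10 counts, the median standard error of a log2 fold change was 0.21, and the median 95% interval reached 0.44 to either side. The interval lay within a log2 fold change of -1 to 1 for 6646 of the 8401 genes (79.1%). The median log2 fold change was 0.002 over all genes, with a biological coefficient of variation of 16.6% over the 12 wild-type livers.

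**Figure D2:**
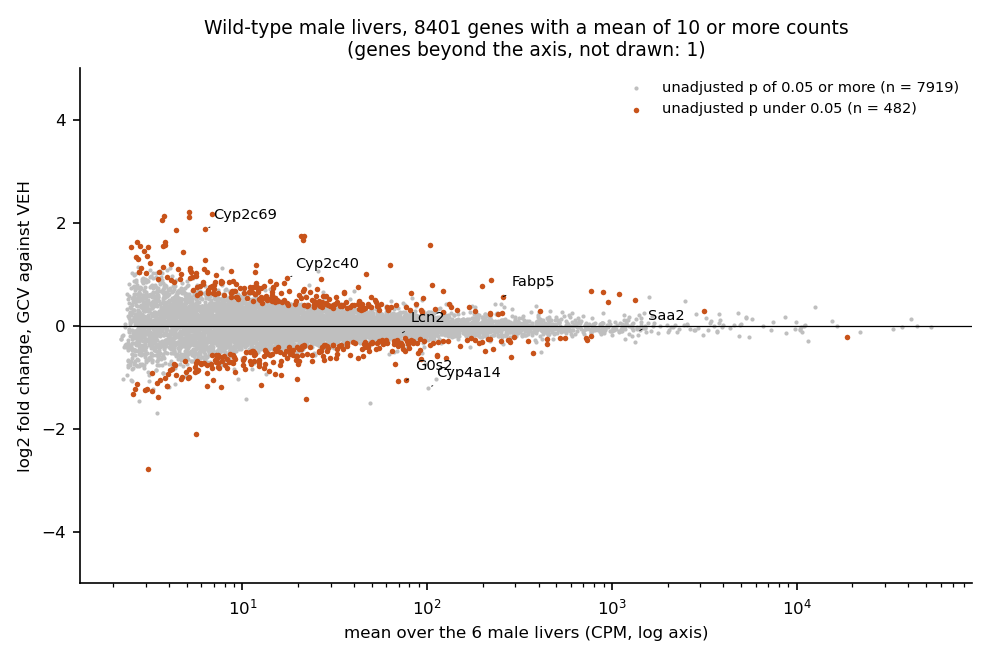
Log2 fold change (GCV versus VEH) against mean CPM for the 8401 genes with a mean of at least 10 counts in wild-type male livers, with the 482 genes at an unadjusted p under 0.05 in color. Both directions are filled, 0 genes passed an adjusted p of 0.05 by edgeR's test (1 by DESeq2, Cyp2c40), and 1 gene lies beyond the axis.

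The genes with the smallest p-values and no overlap between groups are described next, and none of them passed the adjusted threshold of edgeR's test over all livers. Having no overlap was a condition of their choice, and it held for 9.63% of the 8401 genes with a mean of at least 10 counts. Cyp2c40 (chr19:39767071-39812814, GRCm38), a female-biased arachidonic acid hydroxylase, had 19.5, 24.6 and 24.4 CPM after GCV and 7.19, 15.7 and 12.8 CPM after VEH. Every GCV liver lay above every VEH liver, while the females had 430 to 587 CPM. Its log2 fold change was 0.92 (standard error 0.19, edgeR adjusted p = 0.357), and DESeq2 gave an adjusted p of 0.0404. With 1 liver left out in turn, the value of Cyp2c40 lay between 0.69 without VEH liver 1 and 1.16 without VEH liver 2. The edgeR adjusted p-values of these fits were 0.0776 to 0.999. Cyp2c69 (chr19:39842814-39886799), its female-biased neighbor, had 6.29, 4.72 and 18.9 CPM after GCV and 2.40, 1.53 and 3.68 CPM after VEH, a log2 fold change of 1.88 (standard error 0.42, edgeR adjusted p = 0.383). It was called without GCV liver 2 (edgeR adjusted p = 0.0156), and without GCV liver 3 its log2 fold change was 1.05 (edgeR adjusted p = 0.838). Reads of these and other Cyp2c genes may have been split among near-identical copies.

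Smim22, coding for a small membrane protein, had 17.3, 12.1 and 19.8 CPM after GCV and 9.31, 6.56 and 5.80 CPM after VEH, a log2 fold change of 1.18 (standard error 0.27). Itch, a ubiquitin ligase that restrains inflammation, had 56.6, 58.7 and 62.3 CPM after GCV and 43.4, 41.8 and 36.2 CPM after VEH, a log2 fold change of 0.55 (standard error 0.15). The GCV livers of Itch were tightly grouped. Smarca2, an ATPase of the SWI/SNF chromatin remodeler, had 148, 160 and 147 CPM after GCV and 127, 114 and 112 CPM after VEH, a log2 fold change of 0.37 (standard error 0.10). Cavin1, a coat protein of caveolae, had 13.2, 6.77 and 6.71 CPM after GCV and 3.46, 3.28 and 4.06 CPM after VEH. The other genes higher after GCV under this rule were Hivep2, Sik2, Swt1, Wdr11, Zcchc2 and Sema6a, with log2 fold changes of 0.65 to 1.54 and edgeR adjusted p-values of 0.584 to 0.889. Smim22 and Hivep2 were called without VEH liver 1 (edgeR adjusted p = 0.0348 and 0.0349) and with no other liver left out. The log2 fold change was 1.02 for Smim22 without GCV liver 3 and 1.25 for Hivep2 without VEH liver 3.

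Among the genes lower after GCV, G0s2 (chr1:193272161-193273217), an inhibitor of adipose triglyceride lipase and a PPARα target, had the smallest p-value. It had 34.9, 56.4 and 58.6 CPM after GCV and 64.1, 115 and 133 CPM after VEH. All 3 GCV livers lay below the lowest VEH liver, VEH liver 1. Its log2 fold change was -1.06 (standard error 0.21, edgeR adjusted p = 0.357). Without VEH liver 1 the value was -1.30 (edgeR adjusted p = 0.000684). It was -0.86 without GCV liver 1 (edgeR adjusted p = 0.960) and -0.84 without VEH liver 3 (edgeR adjusted p = 0.999). Tuba1a, an α-tubulin, had 8.49, 9.03 and 5.80 CPM after GCV and 18.1, 14.2 and 19.9 CPM after VEH, a log2 fold change of -1.15 (standard error 0.24, edgeR adjusted p = 0.357). Ppp1r3c, which targets protein phosphatase 1 to glycogen, had 10.4, 15.0 and 13.1 CPM after GCV and 23.2, 28.4 and 27.7 CPM after VEH, a log2 fold change of -1.03 (standard error 0.23). By the rule of choice, neither gene overlapped between groups.

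Cxcl9, an interferon-γ-induced chemokine, had 8.49, 12.3 and 9.77 CPM after GCV and 12.5, 22.5 and 24 CPM after VEH, a log2 fold change of -0.94 (standard error 0.24). Irf7, a transcription factor of the interferon response, had 20.1, 18.5 and 26.9 CPM after GCV and 31.7, 31.7 and 34.6 CPM after VEH, a log2 fold change of -0.59 (standard error 0.19). For Cxcl9 the highest GCV liver nearly reached the lowest VEH liver. Dcaf7, Tapt1, Zfand3, Usp22, Zfyve1, Mtch1 and Arhgap6 were the other genes lower after GCV under this rule, with log2 fold changes of -0.87 to -0.41, and Zfand3 was at -0.31 without VEH liver 2. Cxcl9, Zfand3 and Ppp1r3c were called without VEH liver 1 (edgeR adjusted p = 0.014, 0.0348 and 0.039) and with no other liver left out. The log2 fold change was -0.77 for Cxcl9 without VEH liver 3 and -0.91 for Ppp1r3c without GCV liver 1. A predicted gene was passed over in each direction.

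**Figure D3:**
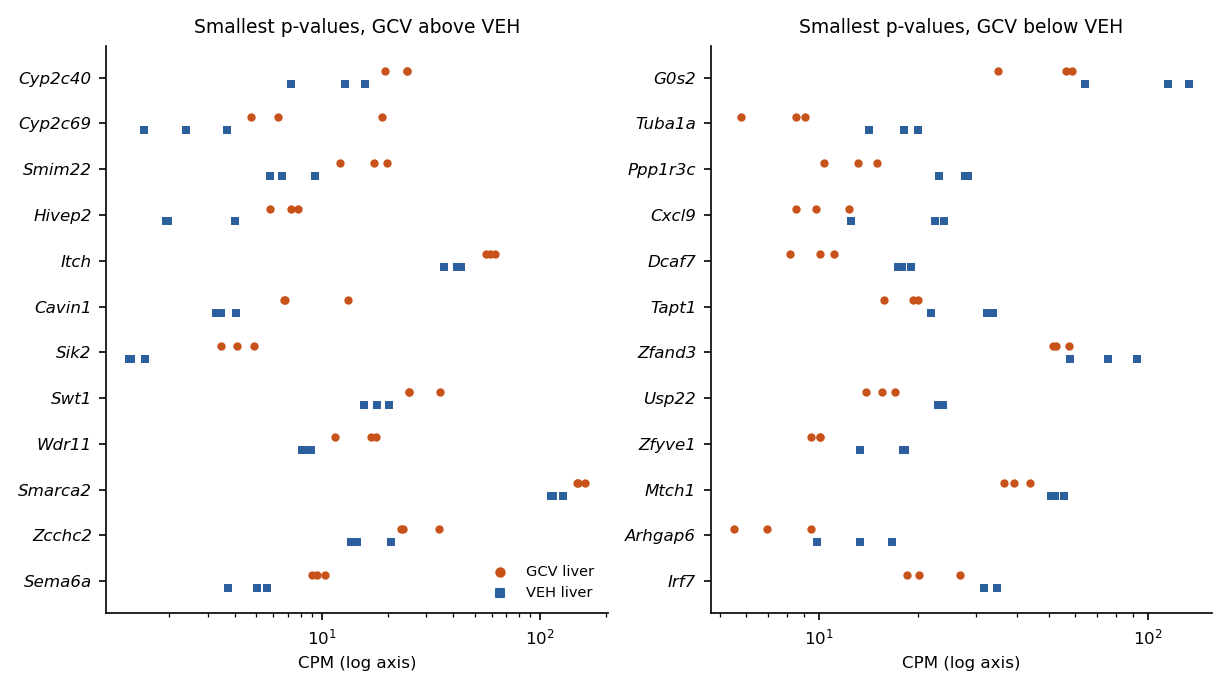
CPM of the genes with the smallest p-values and no overlap between groups, on a log axis, with 1 point per wild-type male liver and GCV and VEH livers in different colors. The 3 GCV livers lie above the 3 VEH livers in the left panel and below them in the right panel, for instance 19.5 to 24.6 against 7.19 to 15.7 CPM for Cyp2c40, and 0 of these genes passed an adjusted p of 0.05 by edgeR's test, while DESeq2 called Cyp2c40.

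The pathways closest to the action of GCV were examined first. With 1 liver left out in turn, the median log2 fold change took both signs in 16 of the 33 gene lists, the acute-phase genes among them, and the lowest and highest of these medians are given beside the medians printed below. Of 17 p53 targets and cell cycle inhibitors measured, 0 had an unadjusted p under 0.05, against 5.06% of all genes. Their median log2 fold change was 0.05 (-0.05 without VEH liver 3 to 0.17 without VEH liver 1). Cdkn1a, the p53-induced inhibitor p21, had 2.52, 1.85 and 6.41 CPM after GCV and 2.13, 2.19 and 3.29 CPM after VEH. The groups overlapped, and its log2 fold change of 0.44 (standard error 0.51) was -0.26 without GCV liver 3. Cdkn2a was matched by no label and is not analysed here. Of 14 DNA repair and checkpoint genes, 0 had an unadjusted p under 0.05, against 5.06% of all genes (median 0.08, and -0.0007 without GCV liver 2 to 0.20 without VEH liver 1).

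Of 11 cell division genes, 1 was higher and 0 were lower at an unadjusted p under 0.05 (9.09%, against 5.06% of all genes). It was Birc5, the mitotic regulator survivin, with 2.52, 1.85 and 1.22 CPM after GCV and 0.532, 0.219 and 0.967 CPM after VEH, a mean below 10 counts. The median log2 fold change of the 11 was 0.53 (0.29 without VEH liver 3 to 0.70 without VEH liver 1), and 0.15 over the 6 with a mean of at least 10 counts. Ccnd1, which drives entry into S phase, had 50.9, 47.6 and 30.8 CPM after GCV and 45.0, 38.7 and 39.7 CPM after VEH. Mcm7, a subunit of the replicative helicase, had 12.3, 14.8 and 16.2 CPM after GCV and 17.6, 18.8 and 16.4 CPM after VEH, a log2 fold change of -0.29 (standard error 0.19), and -0.19 without GCV liver 1. Ccnd1 overlapped between groups, and for Mcm7 the highest GCV liver nearly reached the lowest VEH liver.

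Of 11 mitochondrially encoded genes, 0 had an unadjusted p under 0.05, and the median log2 fold change was 0.07 (0.04 without GCV liver 3 to 0.11 without GCV liver 2). The transcript mt-Co3, a cytochrome c oxidase subunit, had 9967, 9779 and 10804 CPM after GCV and 9990, 10814 and 10931 CPM after VEH, a log2 fold change of -0.05 with a 95% interval of -0.22 to 0.11. Of 8 genes of mitochondrial DNA maintenance, 1 was higher at an unadjusted p under 0.05 (12.5%, against 5.06% of all genes), Suclg2, a subunit of succinyl-CoA ligase, with 255, 292 and 280 CPM after GCV and 236, 229 and 233 CPM after VEH. Its groups did not overlap, and its log2 fold change was 0.24 (standard error 0.11, edgeR adjusted p = 0.889). The median of the 8 was -0.13 (-0.16 without VEH liver 1 to 0.05 without VEH liver 3).

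Of 14 nucleoside transporters and kinases, 0 had an unadjusted p under 0.05 (median -0.01, and -0.07 without GCV liver 1 to 0.05 without GCV liver 2). Adk, adenosine kinase, had 261, 240 and 218 CPM after GCV and 255, 238 and 242 CPM after VEH, a log2 fold change of -0.03 with a 95% interval of -0.25 to 0.18. Its groups overlapped. Of 16 purine metabolism genes, 1 was higher and 1 lower at an unadjusted p under 0.05 (12.5%, against 5.06% of all genes), with a median of 0.05 (0.01 without GCV liver 3 to 0.09 without VEH liver 1). Aprt, which salvages adenine, had 67.9, 49.4 and 65.3 CPM after GCV and 60.1, 27.3 and 42.4 CPM after VEH, a log2 fold change of 0.49 (standard error 0.20), which was 0.25 without VEH liver 2 and 0.79 without VEH liver 1. Ampd3, an AMP deaminase, was at 0, 0.205 and 0 CPM after GCV and 0.532, 0.437 and 1.55 CPM after VEH, near the floor.

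The lists of xenobiotic and sex-biased genes share members. Of 44 cytochrome P450 genes of families 1 to 3, 6 were higher and 1 was lower at an unadjusted p under 0.05 (15.9%, against 5.06% of all genes), with a median log2 fold change of 0.05 (0 without VEH liver 1 to 0.10 without VEH liver 2). All 6 higher genes (Cyp2a4, Cyp2b9, Cyp2c40, Cyp2c69, Cyp3a41a and Cyp3a44) also stand on the list of growth hormone-regulated and sex-biased genes. Cyp2b9, a female-biased steroid hydroxylase, had 1.89, 0.615 and 11.9 CPM after GCV and 0.266, 0.437 and 0.193 CPM after VEH, against 136 to 233 CPM in females. Cyp2a4, a steroid 15α-hydroxylase, had 0.943, 1.03 and 16.5 CPM after GCV and 2.40, 1.31 and 0.387 CPM after VEH. Cyp3a41a, a female-specific P450, had 5.03, 1.64 and 26.9 CPM after GCV and 4.52, 1.97 and 0.967 CPM after VEH.

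In these 3 genes GCV liver 3 stood above the other 5 livers. Without it the log2 fold change of Cyp2a4 was -0.35 in place of 2.14, and that of Cyp3a41a was 0.38 in place of 2.16. Cyp2b9, at a mean below 10 counts, had a fitted log2 fold change of 3.76. It was called without GCV liver 2 (4.42, edgeR adjusted p = 0.0156), and without GCV liver 3 the value was 1.83 (edgeR adjusted p = 0.938). Cyp2d26, an abundant hepatic P450, was the gene lower after GCV, with 401, 417 and 395 CPM after GCV and 463, 485 and 496 CPM after VEH, a log2 fold change of -0.25 (standard error 0.10). Its groups did not overlap. Cyp2d9, a male-specific testosterone hydroxylase, had 1327, 1237 and 1334 CPM after GCV and 1218, 1285 and 1313 CPM after VEH, a log2 fold change of 0.03 with a 95% interval of -0.28 to 0.34. Cyp3a41a and Cyp2d9 have near-identical copies whose reads may have been split.

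Of 42 growth hormone-regulated and sex-biased genes, 9 were higher and 2 lower at an unadjusted p under 0.05 (26.2%, against 5.06% of all genes), and their median log2 fold change was 0.14 (0.04 without GCV liver 1 to 0.28 without GCV liver 2). The other 3 higher genes were Slc22a26, Sult2a1 and Ugt2b38. Ugt2b38 was at 23.9, 8.21 and 22.6 CPM after GCV and 14.4, 7.87 and 7.74 CPM after VEH, and the groups overlapped. Its log2 fold change was 0.86 (standard error 0.37), although it is higher in males than in females (0 to 1.20 CPM). Slc22a26, an organic anion transporter family member with a mean below 10 counts, had a fitted log2 fold change of 1.94 that was -0.98 without GCV liver 3. Sult2a1, a female-biased sulfotransferase of steroids and bile acids, had 1.89, 0.410 and 7.94 CPM after GCV and 0.532, 0.219 and 0.387 CPM after VEH, again with GCV liver 3 highest. Elovl3, a male-biased elongase of very long-chain fatty acids, had 71.1, 93.1 and 51.3 CPM after GCV and 58.8, 136 and 143 CPM after VEH, a log2 fold change of -0.64 (standard error 0.25). Prlr, the prolactin receptor, had 52.8, 75.1 and 51.6 CPM after GCV and 62.3, 96.8 and 78.0 CPM after VEH, a log2 fold change of -0.39 (standard error 0.16), which was -0.22 without VEH liver 2 and -0.61 without GCV liver 2. It was thus lower after GCV although it is higher in females (300 to 413 CPM). For Elovl3 and Prlr, GCV livers 1 and 3 and VEH liver 1 were the 3 lowest, and Elovl3 was called without VEH liver 1 (edgeR adjusted p = 0.0261). Mup7, a major urinary protein gene with near-identical copies, had 64941, 38804 and 55640 CPM after GCV and 66776, 46562 and 48556 CPM after VEH, a log2 fold change of -0.02 (standard error 0.15).

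Of 33 conjugation enzymes, 4 were higher and 0 lower at an unadjusted p under 0.05 (Sult1d1, Sult2a1, Ugt2b37 and Ugt2b38), which is 12.1% against 5.06% of all genes, with a median of 0.01 (-0.05 without GCV liver 3 to 0.04 without VEH liver 3). Ugt2b37, a glucuronosyltransferase, had 3.46, 1.85 and 11.9 CPM after GCV and 1.86, 2.19 and 1.55 CPM after VEH, with GCV liver 3 highest. Its log2 fold change of 1.56 was 0.45 without that liver. Of 12 antioxidant targets of Nrf2, 0 were higher and 1 was lower (8.33%, against 5.06% of all genes), with a median of -0.17 (-0.22 without VEH liver 1 to -0.06 without GCV liver 1). It was Gclc, the catalytic subunit of the enzyme that limits glutathione synthesis, with 150, 216 and 146 CPM after GCV and 114, 303 and 301 CPM after VEH. Its groups overlapped through VEH liver 1, the lowest of the 6, and it was called without that liver (log2 fold change -0.82, edgeR adjusted p = 0.00846) and not called over all 6 (-0.49). Without VEH liver 2 or 3 the value was -0.29.

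Of 26 genes of the PPARα, fasting and fatty acid oxidation list, 0 were higher and 6 were lower at an unadjusted p under 0.05 (23.1%, against 5.06% of all genes and 2.41% lower), with a median log2 fold change of -0.27 and 24 negative values. The median was -0.47 without GCV liver 2, -0.50 without VEH liver 1 and -0.18 without VEH liver 2 or 3. Acaa2, the last enzyme of mitochondrial β-oxidation, had 501, 540 and 501 CPM after GCV and 579, 625 and 611 CPM after VEH, a log2 fold change of -0.24 (standard error 0.10). Acadvl, the very long-chain acyl-CoA dehydrogenase, had 268, 291 and 257 CPM after GCV and 286, 328 and 331 CPM after VEH, a log2 fold change of -0.21 (standard error 0.10). Acaa2 did not overlap between groups, whereas Acadvl did. Aldh3a2, a fatty aldehyde dehydrogenase, had 58.8, 127 and 84.5 CPM after GCV and 68.1, 165 and 174 CPM after VEH, a log2 fold change of -0.58 (standard error 0.25), and was called without VEH liver 1 (-0.89, edgeR adjusted p = 0.0237). The value of Aldh3a2 was -0.93 without GCV liver 2, and -0.36 without GCV liver 1 or VEH liver 3.

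G0s2, given above, was the fourth of the 6 genes, and Fgf21 and Cyp4a32 had means below 10 counts. Fgf21, a fasting hormone of the liver, had 0, 0.410 and 0 CPM after GCV and 0.266, 1.31 and 4.64 CPM after VEH. Fabp1, the abundant fatty acid-binding protein of hepatocytes, had 9255, 13001 and 8741 CPM after GCV and 8519, 14893 and 14912 CPM after VEH, a log2 fold change of -0.31 (standard error 0.20), which lay between -0.53 without VEH liver 1 and -0.18 without VEH liver 2 or 3. In this gene GCV livers 1 and 3 lay with VEH liver 1, below the other 3 livers.

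Of 16 genes of de novo lipogenesis, 3 were higher and 0 lower at an unadjusted p under 0.05 (18.8%, against 5.06% of all genes), with a median log2 fold change of 0.15 (0.16 without GCV liver 2 to 0.27 without GCV liver 1). Lpin1, a phosphatidate phosphatase, had 102, 72.6 and 122 CPM after GCV and 104, 42.2 and 45.7 CPM after VEH, a log2 fold change of 0.64 (standard error 0.28). Pklr, the liver pyruvate kinase, had 98.7, 116 and 85.5 CPM after GCV and 100, 56.4 and 68.1 CPM after VEH, a log2 fold change of 0.43 (standard error 0.17). Elovl6, which elongates palmitate, had 119, 146 and 186 CPM after GCV and 133, 99.7 and 105 CPM after VEH, a log2 fold change of 0.42 (standard error 0.19). In all 3 genes VEH liver 1 lay among the GCV livers. Without it Lpin1 was at 1.16 and Pklr at 0.69, and both were called (edgeR adjusted p = 0.0237 and 0.0348). Without VEH liver 2 Lpin1 was at 0.41 and Pklr at 0.26, and without GCV liver 3 Elovl6 was at 0.24. Scd1, the most abundant member, had 3269, 6589 and 3613 CPM after GCV and 3038, 6461 and 6082 CPM after VEH. Its log2 fold change was -0.21 (standard error 0.23), and lay between -0.60 without GCV liver 2 and -0.02 without VEH liver 2. Of the 16 genes, 13 were above 0 and 3 below. Of 18 cholesterol synthesis genes, 0 had an unadjusted p under 0.05 (median 0.05, and -0.05 without VEH liver 2 to 0.20 without VEH liver 1).

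Of 22 bile acid genes, 1 was higher at an unadjusted p under 0.05 (4.55%, against 5.06% of all genes). Cyp7a1, the rate-limiting enzyme of bile acid synthesis, had 92.8, 147 and 210 CPM after GCV and 129, 71.7 and 82.6 CPM after VEH, a log2 fold change of 0.67 (standard error 0.31), and 0.36 without GCV liver 3. Its groups overlapped, and the median of the list was -0.007 (-0.007 without GCV liver 1 to 0.01 without VEH liver 2). Of 10 genes of glucose production and insulin response, 1 was higher (10%, against 5.06% of all genes; Nr4a1, at a mean below 10 counts; median 0.27, and 0.07 without GCV liver 3 to 0.49 without GCV liver 2), and of 9 clock genes 0 had an unadjusted p under 0.05 (median -0.06, and -0.20 without GCV liver 1 to 0.005 without VEH liver 1).

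Of 14 cytosolic heat shock genes, 3 were higher and 0 lower at an unadjusted p under 0.05 (21.4%, against 5.06% of all genes), with a median log2 fold change of 0.13 that was -0.002 without GCV liver 3 and 0.23 without GCV liver 1. Hspa1a, an inducible HSP70 with a near-identical copy, had 3.77, 1.85 and 19.8 CPM after GCV and 2.40, 0.437 and 2.52 CPM after VEH. Dnajb1, its HSP40 partner, had 27.7, 14.8 and 37.5 CPM after GCV and 17.8, 16.2 and 19.2 CPM after VEH. GCV liver 3 was highest in both genes. Without it the log2 fold change of Hspa1a was 0.62 in place of 2.21, and that of Dnajb1 was 0.23 in place of 0.56. Stip1, which links HSP70 and HSP90, had 54.1, 49.0 and 62.0 CPM after GCV and 42.0, 44.8 and 39.9 CPM after VEH, with no overlap and a log2 fold change of 0.38 (standard error 0.15).

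Of 33 interferon-stimulated genes, 1 was higher (Irf8) and 3 were lower (Cxcl9, Igtp and Irf7) at an unadjusted p under 0.05, which is 12.1% against 5.06% of all genes, with a median log2 fold change of 0.10 (0.007 without GCV liver 3 to 0.19 without GCV liver 2). Igtp, an interferon-γ-induced GTPase, had 13.8, 17.2 and 15.6 CPM after GCV and 18.4, 24.7 and 32.3 CPM after VEH. Irf8, a transcription factor of myeloid cells, had 15.4, 15.4 and 21.4 CPM after GCV and 13.8, 10.1 and 10.8 CPM after VEH. Neither overlapped between groups. Of 28 secretory-phenotype cytokines and growth factors, 0 had an unadjusted p under 0.05 (median -0.01, and -0.07 without GCV liver 1 to 0 without VEH liver 2). Of 22 genes of endoplasmic reticulum and integrated stress, 0 were higher and 1 was lower (Fgf21; median -0.06, and -0.17 without VEH liver 1 to -0.04 without VEH liver 2), and of 12 immediate early genes 1 was higher (Nr4a1) and 2 were lower (Klf10 and Maff; median -0.12, and -0.20 without VEH liver 2 to -0.06 without VEH liver 3). These are 4.55% and 25% of their lists, against 5.06% of all genes.

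**Figure D4:**
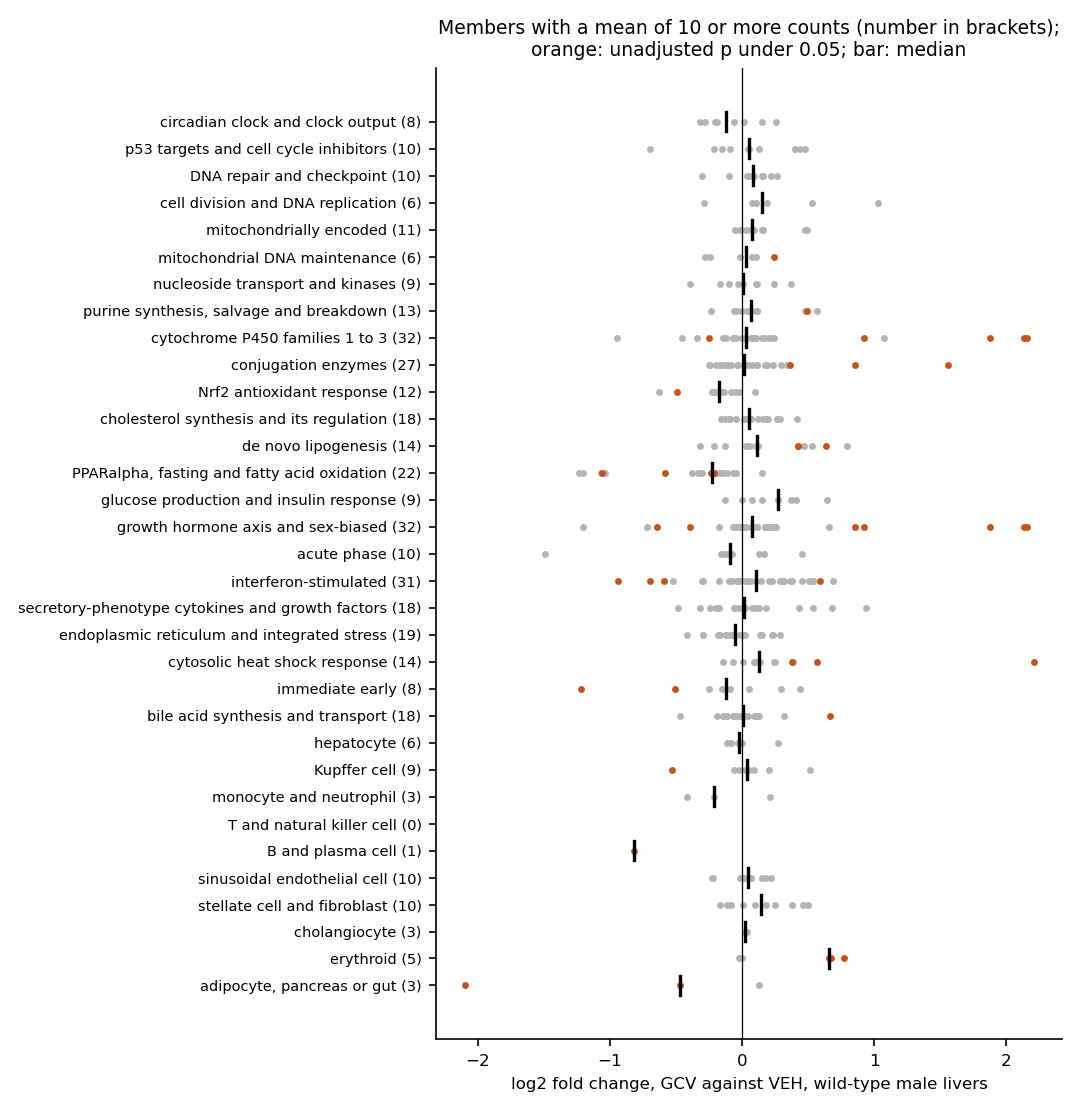
Log2 fold change (GCV versus VEH) in wild-type male livers of the list members with a mean of at least 10 counts, with 1 point per gene, orange at an unadjusted p under 0.05, and a bar at each list's median. The median of these members is -0.22 for the PPARα list and 0.66 for the erythroid markers, and 0 members passed an adjusted p of 0.05 by edgeR's test (1 by DESeq2, Cyp2c40).

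Markers of the cell types of the liver were compared in the same way, and in whole tissue fewer cells of a type and less RNA per cell cannot be told apart. Of 6 hepatocyte, 10 sinusoidal endothelial, 11 stellate or fibroblast and 8 cholangiocyte markers, 0 had an unadjusted p under 0.05, with median log2 fold changes of -0.02, 0.04, 0.18 and 0.03. The hepatocyte median lay between -0.07 without GCV liver 1 and 0.06 without GCV liver 2, and the endothelial median between 0.001 without GCV liver 3 and 0.08 without GCV liver 1. The stellate or fibroblast median lay between -0.05 without GCV liver 2 and 0.29 without VEH liver 1, and the cholangiocyte median between -0.006 without VEH liver 3 and 0.21 without VEH liver 1. Of 10 Kupffer cell markers, 7 had a log2 fold change above 0 and 3 below (median 0.04, and -0.12 without VEH liver 3 to 0.23 without VEH liver 1), and 0 were higher and 1 was lower at an unadjusted p under 0.05 (10%, against 5.06% of all genes). It was Id3, an inhibitor of basic helix-loop-helix factors, with 90.6, 79.4 and 47.6 CPM after GCV and 103, 103 and 109 CPM after VEH. Its groups did not overlap, and its log2 fold change was -0.53 (standard error 0.25), and -0.31 without GCV liver 3. Clec4f, a lectin of Kupffer cells, overlapped between groups, with 78.6, 62.6 and 85.8 CPM after GCV and 89.7, 77.2 and 69.5 CPM after VEH.

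Of 10 monocyte and neutrophil markers, 0 had an unadjusted p under 0.05, and their summed level was 72.9 to 112 CPM after GCV and 70.2 to 102 CPM after VEH. Their median log2 fold change was -0.26 (-0.49 without GCV liver 3 to 0.21 without VEH liver 1). The 7 T and natural killer cell markers summed to 0.821 to 2.83 CPM after GCV and 1.33 to 2.52 CPM after VEH, near the floor. Of 7 B and plasma cell markers, 1 was higher (Cd79a, at a mean below 10 counts) and 1 lower at an unadjusted p under 0.05 (28.6%, against 5.06% of all genes). Igkc, the κ light chain constant region, had 5.03, 6.36 and 4.58 CPM after GCV and 8.25, 11.6 and 8.71 CPM after VEH, a log2 fold change of -0.82 (standard error 0.35), with no overlap.

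Of 5 erythroid markers, 3 were higher at an unadjusted p under 0.05 (60%, against 2.65% of all genes higher), and the list's median log2 fold change was 0.66. The other 2 did not pass it: Alas2, which starts heme synthesis, was at -0.02 (-0.08 to 0.008 with 1 liver left out), and Klf1, an erythroid transcription factor, at -0.0005 (-0.40 to 0.75). Hba-a1, an α-globin, had 740, 1815 and 735 CPM after GCV and 624, 722 and 743 CPM after VEH. Hbb-bt, a β-globin, had 176, 374 and 199 CPM after GCV and 141, 150 and 150 CPM after VEH. Hba-a1 overlapped between groups, whereas Hbb-bt did not. In the wild-type females their log2 fold changes were 0.54 (standard error 0.25) and 0.58 (standard error 0.24), and neither was called. Among the males, GCV liver 2 stood above the other 5 livers in both globins. Without it the log2 fold change of Hba-a1 was 0.08 in place of 0.66, that of Hbb-bt was 0.35 in place of 0.77, and the median was 0.21, against 0.88 without GCV liver 3. The summed level of the list was 1780, 3767 and 1664 CPM after GCV and 1499, 1529 and 1624 CPM after VEH. Of 4 adipocyte, pancreas or gut markers, 2 were lower at an unadjusted p under 0.05, Cfd and Fabp2 (50%, against 2.41% of all genes lower). The other 2 did not pass it: Fabp4 was at 0.13 (-0.12 without VEH liver 2, 0.33 without VEH liver 3), and Cela2a had a mean below 10 counts. The median of the 4 was -0.17 (-0.49 without GCV liver 3 to -0.10 without GCV liver 1). Cfd, the adipsin gene, had 1.26, 3.08 and 1.83 CPM after GCV and 0.532, 14.2 and 12.6 CPM after VEH, so that VEH liver 1 again lay with the GCV livers. Without that liver Cfd was called (edgeR adjusted p = 0.0112). Fabp2 had 66.0, 93.5 and 69.9 CPM after GCV and 54.3, 132 and 132 CPM after VEH, a log2 fold change of -0.47 (standard error 0.22). Without VEH liver 1, its lowest liver, Fabp2 was also called (-0.78, edgeR adjusted p = 0.0112), and without VEH liver 2 or 3 it was at -0.29. The part of these cell types in the gene results was not tested.

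The response to GCV was set against that of the 6 wild-type females in the same fit. By edgeR's test, 1 gene (0.00791%) had an adjusted p under 0.05 for the difference between the sexes, and 563 (4.45%) had an unadjusted p under 0.05. It was Fabp5 (chr3:10012548-10016607), an epidermal-type fatty acid-binding protein with several pseudogenes. Males had 369, 244 and 306 CPM after GCV and 337, 134 and 153 CPM after VEH, a log2 fold change of 0.56 (standard error 0.24, edgeR adjusted p = 0.889). Without VEH liver 1 the value in males was 1.09 (edgeR adjusted p = 0.00244), and without VEH liver 2 it was 0.32. Females had 216, 188 and 198 CPM after GCV and 487, 767 and 704 CPM after VEH, a log2 fold change of -1.70 (standard error 0.24, edgeR adjusted p = 0.00927). The groups overlapped in males and not in females. The difference, males minus females, was 2.26 (standard error 0.34), with an adjusted p of 0.0197 by the quasi-likelihood test of edgeR (Benjamini-Hochberg).

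With 1 liver left out in turn, the difference for Fabp5 lay between 2.03 and 2.80, and the number of genes called between 0 and 17, with 17 without male VEH liver 1. Its edgeR adjusted p was above 0.05 without male GCV liver 1 or 3, male VEH liver 3, female GCV liver 4, 5 or 6, or female VEH liver 6 (0.0539 to 0.108). DESeq2 called 1 gene for this difference, Cyp2c40 (adjusted p = 0.0195), and gave Fabp5 an adjusted p of 0.0946. With filterByExpr, the edgeR adjusted p of Fabp5 was 0.222. The next genes by p-value, with adjusted p-values of 0.626 to 0.697 from edgeR's test, were not called by it. They included Cyp2c40 (difference 1.17), Foxa1, a pioneer factor of hepatocytes (2.19), Tubb2a, a β-tubulin (-1.24) and G0s2 (-1.22), for which the females lay between 45.1 and 65.9 CPM.

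**Figure D5:**
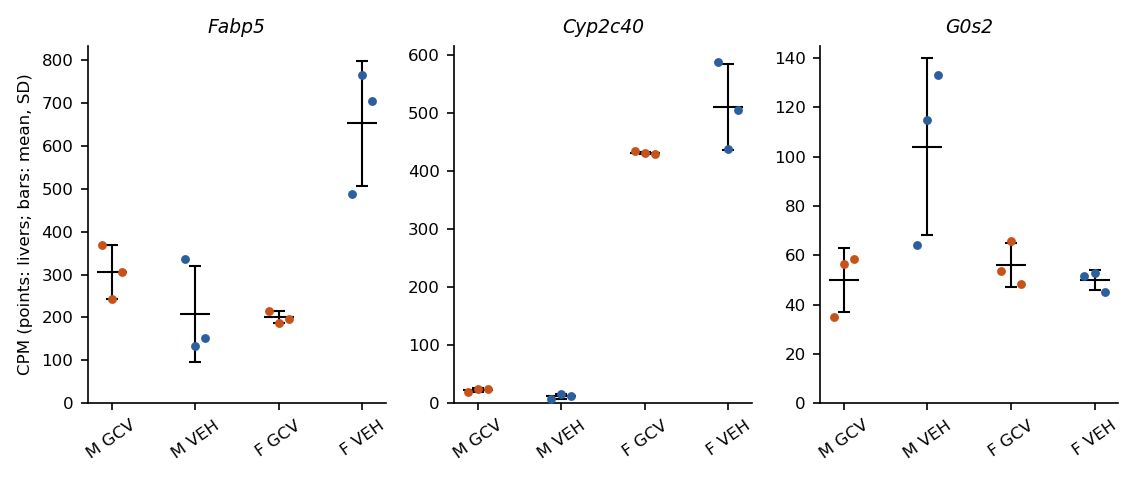
CPM of Fabp5, Cyp2c40 and G0s2 in the 12 wild-type livers, by sex (M, F) and treatment, with 1 point per liver and bars for the mean and SD of each group (n = 3). For Fabp5 the VEH females lie between 487 and 767 CPM and the GCV females between 188 and 216 CPM, while GCV and VEH males overlap.

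The 6 p16-3MR males, fitted apart in their own table, are given beside these values without a test. In them edgeR's test called 0 of 21755 genes (0%), with 416 (1.91%) at an unadjusted p under 0.05 and a biological coefficient of variation of 55.8%. The TMM factors of these 6 livers spanned 0.931 to 1.8, and the fit used all 12 p16-3MR livers. Among the females in that fit, GCV liver 33 had a TMM factor of 0.259 and counts on 13409 genes. Cyp2c40 had 26.1, 1.27 and 45.3 CPM after GCV and 3.5, 17.5 and 14.1 CPM after VEH, a log2 fold change of 1.05 (standard error 0.90). G0s2 had 12.8, 10.1 and 61.9 CPM after GCV and 6.88, 15.0 and 54.1 CPM after VEH, a log2 fold change of 0.15 (standard error 0.89). Both genes overlapped between groups in the p16-3MR males. Saa2 also varied among single p16-3MR livers, with 305, 51.8 and 4363 CPM after GCV and 59.3, 81.4 and 18.8 CPM after VEH.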

How the data were processed

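Liver RNA of wild-type males was read as the estimated counts that the authors deposited. They were made, per the study's methods and processing notes, from Smart-3SEQ reads trimmed with Trim Galore 0.6.10 after FastQC 0.11.9, quantified with Salmon 1.10.3 and summed to genes, with genes under 3 reads left out. The notes name build mm10. The expected counts are not scaled for library size, and reads that fit near-identical copies were divided by estimation.

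Values were rounded to whole numbers and fitted with edgeR 4.0.16 in R 4.3.3: TMM, 1 mean per sex and treatment over the 12 wild-type livers (batch 2), the quasi-likelihood test, with Benjamini-Hochberg adjusted p-values over 12643 labels and calls at an adjusted p under 0.05. The p16-3MR table was fitted alike and apart. CPM are divided by TMM-scaled totals, with a prior count of 2 for log2 CPM. Principal components used centered log2 CPM. A count of 3 is the floor. All intervals are 95% and on the log2 scale. Standard errors are the absolute log2 fold change over the square root of its quasi-likelihood F value. Intervals add t quantiles of these errors, so both are approximate. DESeq2 1.42.0, its size factors in edgeR, limma 3.58.1 (voom with quality weights), filterByExpr, a fit of the 6 males alone, an adjusted p under 0.1, a replicate block and each liver left out were the alternatives. The scripts were tested on simulated data. Gene coordinates are GENCODE for GRCm38, promoters RefSeq. Python 3.11.15 and matplotlib 3.10.9 drew the plots.

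Named genes were up to 12 per direction with the smallest p among those with 1 symbol, no overlap and a mean count of 10 or more; list members with an unadjusted p under 0.05; the 2 most abundant members of each list; Cdkn2a, Cdkn1a and Fabp5; the 10 most variable genes; and up to 5 per direction for the sex difference. The livers, the 23 pathway lists and the 10 marker lists were chosen with earlier results of these data known. No set test was run. Each gene column was used. Some items are not reported here.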

Additional observations from a re-analysis of the deposited data

Results flagged for a closer look

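Fabp5 was the 1 gene whose response to GCV differed between wild-type males and females in edgeR's test of the difference itself. The log2 fold change in males minus that in females was 2.26 (standard error 0.34), with an adjusted p of 0.0197 by the quasi-likelihood test of edgeR (Benjamini-Hochberg). Male livers had 369, 244 and 306 CPM after GCV and 337, 134 and 153 CPM after VEH, and female livers 216, 188 and 198 CPM after GCV and 487, 767 and 704 CPM after VEH. The difference was above 0 with every 1 of the 12 livers left out (2.03 to 2.80), with edgeR adjusted p-values between 4.7e-08 and 0.108. The call was not made by every test: DESeq2 gave Fabp5 an adjusted p of 0.0946 and called Cyp2c40 in its place (adjusted p = 0.0195), and with filterByExpr the edgeR adjusted p of Fabp5 was 0.222, with 0 genes called.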

How the results depend on the processing

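The 0 calls between GCV and VEH in wild-type males became 1 with DESeq2, 68 with the replicate block and 0 to 46 with 1 liver left out (46 without VEH liver 1, 4 without GCV liver 2), and stayed 0 with DESeq2's size factors, limma-voom, filterByExpr, the 6 males alone and an adjusted p under 0.1. The 640 genes at an unadjusted p under 0.05 became 414 with DESeq2, 1114 with limma-voom and 432 to 1224 with 1 liver left out. For the difference between the sexes, the 1 call became 0 with filterByExpr, 79 with the replicate block and 0 to 17 with 1 liver left out, and the 563 genes at an unadjusted p under 0.05 became 362 with DESeq2, 854 with limma-voom and 444 to 883 with 1 liver left out. DESeq2 kept a count of 1 there, with Cyp2c40 in place of Fabp5. The replicate numbers were not taken to pair the samples, since the labels do not say so and not every same-numbered pair correlated above 0.1: after group means were removed, these correlations lay between -0.0663 and 0.283 in males. Of the male GCV livers, 2 of 3 had their own number as best partner, and of the female ones 0 of 3.

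Log2 fold changes with another sign were those of Saa2 (2.58 with limma-voom, 0.79 with the replicate block, -1.96 to 5.04 with 1 liver left out), Lcn2 (1.89, 0.64 and -0.71 to 3.73), Cyp2a4 (-0.35 without GCV liver 3, at most 2.76), Cdkn1a (-0.26 without GCV liver 3, at most 0.79), Slc22a26 (-0.98 without GCV liver 3, at most 2.64), Mup7 (0.11 with limma-voom, -0.19 to 0.16 with 1 liver left out), Adk (0.030 without GCV liver 3, at least -0.097), Fabp4 (-0.12 to 0.33 with 1 liver left out), Alas2 (-0.083 to 0.0085) and Klf1 (0.011 with DESeq2, 0.38 with limma-voom, 0.0034 with filterByExpr, 0.0018 in the 6 males alone, 0.053 with the replicate block, -0.40 to 0.75 with 1 liver left out). The cause was not tested. These are the sign changes among 79 named genes followed through the settings. Of their 473 values under settings other than leaving out a liver, 438 kept direction and side of the threshold and 25 passed it. At a mean of at least 10 counts the median 95% interval reached 0.44 to either side, and genes with a lower mean are given without a fold except Cyp2b9 and Slc22a26. Of 198 list medians with 1 liver left out, 22 moved by more than the spread between livers, and of 65 under the other settings 2 did, both with filterByExpr: p53 targets (-0.09) and cell division (0.15).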

Other observations

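Labels that several symbols give were left out of the named genes, and 3 of them had some of the smallest p-values. They were chosen after their values were seen, and none passed the adjusted threshold of edgeR's test over all 6 livers. The label Id1, which stands for Id1, an inhibitor of differentiation, or Ido1, a tryptophan-degrading enzyme, had 4.72, 18.5 and 11.9 CPM after GCV and 27.4, 37.8 and 31.9 CPM after VEH. The label Gadd45, which stands for the stress-inducible genes Gadd45b or Gadd45g, had 35.2, 46.4 and 14.7 CPM after GCV and 13.3, 7.21 and 10.4 CPM after VEH. In both labels the groups did not overlap. The label Ifp1, which stands for Igfbp1, a fasting-induced binding protein of insulin-like growth factors, or Igfbpl1, had 48.1, 14.6 and 33.3 CPM after GCV and 17.3, 5.25 and 6.38 CPM after VEH. Without VEH liver 1 all 3 labels were called (edgeR adjusted p = 0.0348 for Id1, 0.0349 for Gadd45 and 0.0114 for Ifp1). Id1 was also called without GCV liver 2 (edgeR adjusted p = 0.0377), and none of the 3 was called with any other liver left out.

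Several of the most variable genes were predicted genes listed at 0 in some livers and well above the floor in others. Gm10175 had 66.3, 0 and 39.1 CPM after GCV and 0, 48.7 and 0 CPM after VEH. Gm4294 had 0, 0 and 24.1 CPM after GCV and 43.1, 0 and 0 CPM after VEH. Gm10095 was at 34.1 CPM in VEH liver 1 and at 0 in the other 5 livers. Since the counts are estimates, an exact 0 can be a failed estimate, and no fold is given.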
